A study of Homo sapiens with 6 samples.

Results

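The genes described here are 44 genes of N-glycan synthesis and Golgi N-glycan processing, taken by their GENCODE symbol from a matrix of 32750 gene IDs measured by RNA sequencing. All 44 had a row, and 43 of them passed the filter on low counts. The cells were LX-2, an immortalised human line derived from hepatic stellate cells, which become the liver's main collagen producers when it scars. They are labelled wild type in genotype. There were 3 libraries labelled as transfected with an siRNA against ATP6AP1 and 3 of cells transfected with a non-targeting control siRNA, both of poly(A) RNA. The submitters describe the libraries of each group as independent biological replicates. The series title calls the cells activated, but an activating treatment, the siRNA dose and the harvest time are not given in the labels used here. ATP6AP1 is an accessory subunit of the V-ATPase, the proton pump that acidifies the Golgi, endosomes and lysosomes.

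N-glycans are built on the lipid dolichol on the cytosolic face of the endoplasmic reticulum (ER), flipped into its lumen, extended there, and transferred as a block to asparagine residues of new proteins by the oligosaccharyltransferase. Glucosidases and mannosidases then trim the glycan, and in the Golgi the MGAT enzymes start antennae that are capped with galactose and sialic acid, while FUT8 adds fucose to the core. Collagens, integrins and growth factor receptors of stellate cells carry such glycans. Inherited defects of ATP6AP1, of the Golgi protein TMEM165 and of many enzymes of this pathway cause congenital disorders of glycosylation.

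The mRNA of the siRNA's own target went against the label. ATP6AP1 (chromosome X, 154428633 to 154436516 on GRCh38) stood at 144, 146 and 140 CPM (each count as a share of its TMM-scaled library total) in the libraries labelled ATP6AP1 siRNA and at 116, 117 and 129 CPM in the control siRNA libraries. It averaged 143 ± 3.01 CPM under the ATP6AP1 siRNA label and 121 ± 7.26 CPM under the control siRNA label (SD, n = 3 each), 1.19-fold higher with a 95% confidence interval from 1.08 to 1.30 (edgeR quasi-likelihood test with Benjamini-Hochberg adjustment, adjusted p = 0.00425). Directions below therefore compare groups as labelled and do not describe a measured depletion. Were the labels exchanged, every rise and fall given here would be reversed, and whether they were was not tested. Total counts were 15644464 to 17880546 in the libraries labelled ATP6AP1 siRNA and 17700222 to 19656533 in the control siRNA libraries. Of the 9 stellate cell markers listed, 6 averaged at least 5 CPM, PDGFRA and DES stood near or under 1 CPM, and LRAT had no row. The summed level of the listed markers was 3201 to 3608 CPM in the libraries labelled ATP6AP1 siRNA and 5585 to 6053 CPM in the control siRNA libraries. Most of it was VIM (2632 to 2847 CPM with the ATP6AP1 siRNA label, 4497 to 4861 CPM with control siRNA) and COL1A1. COL1A2, the next highest, stood at 25.0 to 27.0 CPM with the ATP6AP1 siRNA label and 39.3 to 44.9 CPM with control siRNA. Summed markers of other cell types lay far below those of stellate cells, a gap that rests on VIM and COL1A1. Of the hepatocyte genes with a row, 4 of 6 (ALB, APOA1, APOB and CYP3A4) averaged under 1 CPM in both groups. So did 2 of 4 cholangiocyte, 4 of 5 endothelial and 4 of 6 leukocyte genes. The hepatocyte sum was 8.27 to 9.07 CPM in the libraries labelled ATP6AP1 siRNA and 9.83 to 11.6 CPM in the control siRNA libraries, mostly SERPINA1 and TF. The cholangiocyte sum was 29.5 to 38.1 CPM with the ATP6AP1 siRNA label and 26.4 to 32.2 CPM with control siRNA, mostly SOX9. The leukocyte sum was 58.1 to 63.8 CPM with the ATP6AP1 siRNA label and 60.5 to 72.6 CPM with control siRNA, mostly CD68, while PTPRC, CD163 and MARCO stood near 0. The endothelial sum was 6.91 to 9.05 CPM with the ATP6AP1 siRNA label and 3.44 to 3.97 CPM with control siRNA, and KDR, a receptor that makes up most of it, was raised (log2 fold change 1.5, adjusted p = 1.76e-05). In bulk RNA, fewer cells of a type and less RNA per cell cannot be told apart.

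Among the 43 tested N-glycan genes, 13 were lowered, 3 were raised and 27 did not pass the test (edgeR, adjusted p under 0.05). Of all 15372 genes tested, 26.6% were lowered and 26.7% raised, 53.3% in either direction, so as a group the N-glycan genes held fewer raised genes in these counts and about as many lowered ones. The calls lay unevenly along the pathway. Of the 22 genes of ER assembly and transfer, 3 were lowered (13.6%) and 2 raised (9.09%), and their median log2 fold change was 0.045. Of the 10 genes of Golgi trimming and branching, 7 were lowered (70%) and 1 raised, with a median log2 fold change of -0.388. The median over all genes tested was -0.00433, and the median size of the change regardless of sign was 0.109 in the ER genes, 0.468 in the Golgi genes and 0.318 over all genes tested. The libraries of the 2 groups were fully separated in 8 of the 22 ER genes and 8 of the 10 Golgi genes, against 59.5% of all genes tested. These counts and medians describe the lists, and the difference between the stages was not itself tested. The numbers raised and lowered rest partly on the scaling. With library size alone, 15 of the 43 were raised and 11 lowered (36.5% and 17.8% of all genes tested), as the median over all genes moved to 0.133. Of the ER genes 10 were then raised and 3 lowered, and of the Golgi genes 2 raised and 5 lowered, with medians of 0.18 and -0.25. The Golgi median minus the ER median stayed as it was, at -0.432 with library size alone against -0.433 with TMM. It was bound to, because a change of scaling alone shifts all log2 fold changes by nearly the same amount. Without 1 library, the number raised among the 43 ran up to 7 (without control siRNA replicate 3) and 5 (without ATP6AP1 siRNA replicate 1). The shares over all genes were not taken for fits without a library. DESeq2 called 1 raised and 13 lowered (19.9% of its genes each way), a block for the replicate number 2 raised and 13 lowered (23.5% and 23.3%), and the removal of transcript length and GC trends 5 raised and 17 lowered (29.6% and 30.2%). The lower level of stellate cell markers moved with these results, and its part in them was not tested.

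**Figure D1:**
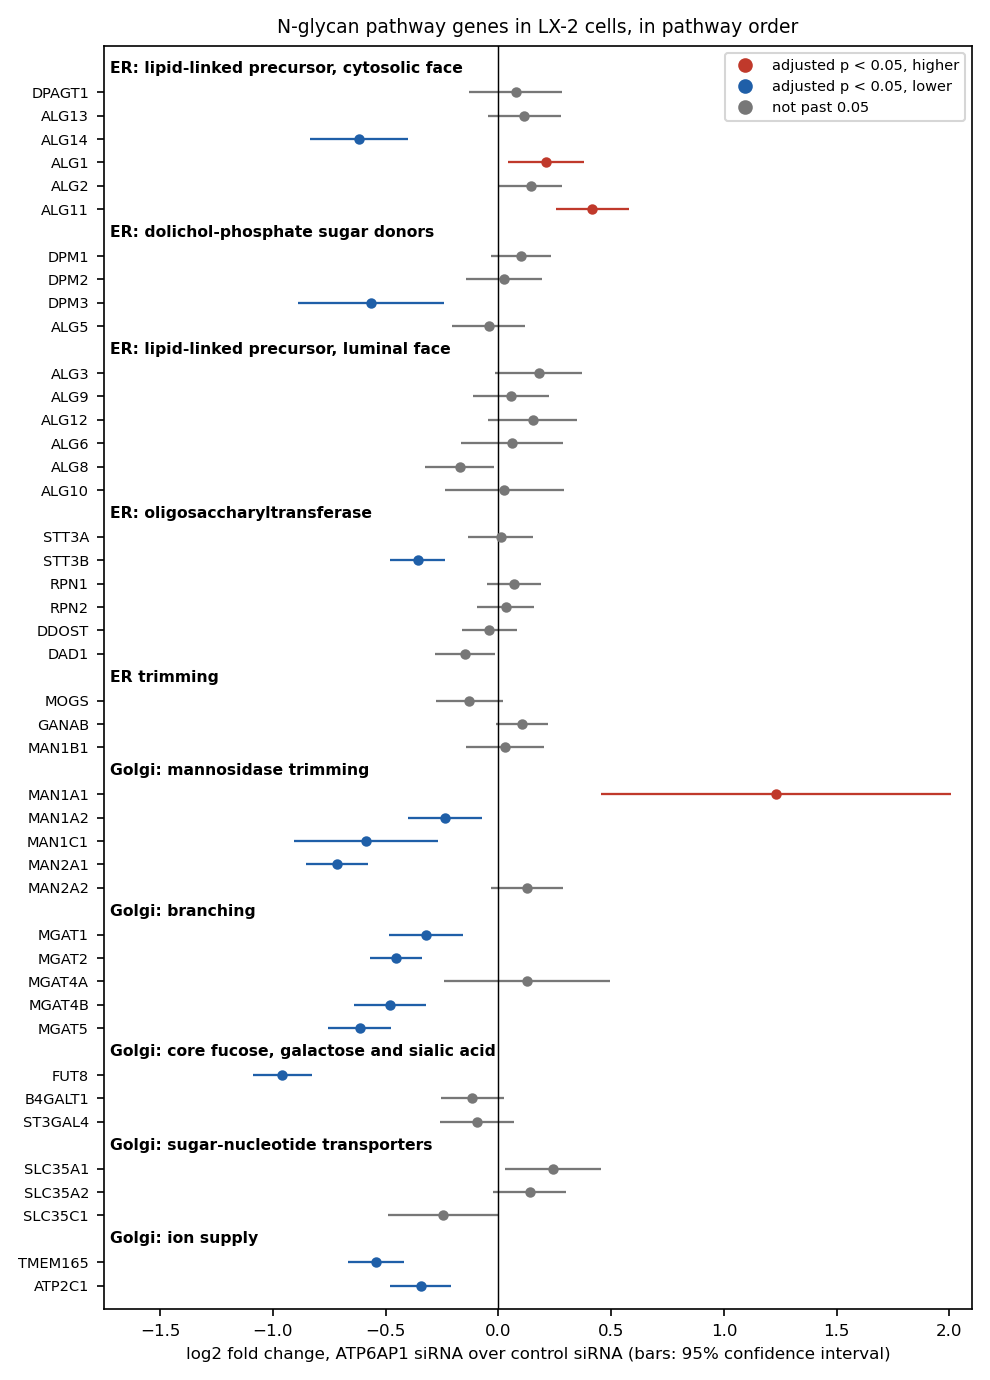
Log2 fold changes (x axis, libraries labelled ATP6AP1 siRNA over control siRNA) of the 43 tested N-glycan genes, in pathway order from the cytosolic face of the ER at the top to the Golgi ions at the bottom; bars are 95% confidence intervals and colours mark the calls at an adjusted p of 0.05. Most ER genes lie near 0, while 7 of the 10 genes of Golgi trimming and branching lie below it, and MAN1A1, at 1.23, has the widest interval.

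The lipid-linked precursor is started on the cytosolic face of the ER by DPAGT1, which puts the first N-acetylglucosamine on dolichol phosphate, and extended by ALG13 with ALG14 and then by the mannosyltransferases ALG1, ALG2 and ALG11. Here ALG14 passed the test and its partner ALG13 did not, and the difference between them was not tested. ALG14, the membrane anchor that holds the catalytic ALG13 at the ER, had 9.82, 9.17 and 9.93 CPM in the libraries labelled ATP6AP1 siRNA and 15, 15.6 and 13.8 CPM in the control siRNA libraries. All 3 libraries labelled ATP6AP1 siRNA lay below all control siRNA libraries, and ALG14 (chromosome 1, 94974405 to 95072951) fell 1.53-fold (log2 fold change -0.62, SE 0.0997, adjusted p = 0.000185). Its partner ALG13 had 29.8, 31.1 and 33.4 CPM in the libraries labelled ATP6AP1 siRNA against 30, 28.6 and 28.5 CPM in the control siRNA libraries (log2 fold change 0.12, adjusted p = 0.214), and there the groups overlapped. Within each library, the ratio of ALG14 to ALG13 CPM was 0.330, 0.295 and 0.297 in the libraries labelled ATP6AP1 siRNA and 0.501, 0.544 and 0.484 in the control siRNA libraries.

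ALG11, which adds the last mannoses before the precursor is flipped, had 67.8, 67.4 and 69.5 CPM in the libraries labelled ATP6AP1 siRNA and 55.9, 46.1 and 51.6 CPM in the control siRNA libraries, with no overlap (1.33-fold higher, adjusted p = 0.000416). This value is uncertain, because 84.8% of the 50-base windows of its transcript also occur in transcripts of other genes, mainly UTP14C. UTP14C itself averaged 13.6 ± 3.73 CPM in the libraries labelled ATP6AP1 siRNA and 10.9 ± 1.83 CPM in the control siRNA libraries (adjusted p = 0.154). ALG1, which adds the first mannose, had 41.6, 44.9 and 40.4 CPM in the libraries labelled ATP6AP1 siRNA and 34.0, 35.9 and 39.7 CPM in the control siRNA libraries. The groups were separated by a narrow gap and ALG1 passed the test (log2 fold change 0.21, adjusted p = 0.0363), but 34.1% of its windows are shared with other transcripts. The call was lost in 8 of 18 alternatives, among them DESeq2 (adjusted p = 0.0818) and the omission of control siRNA replicate 1 (0.115), control siRNA replicate 2 (0.101) or ATP6AP1 siRNA replicate 2 (0.161). DPAGT1 had a log2 fold change of 0.08 (adjusted p = 0.527) and ALG2 one of 0.14 (adjusted p = 0.0806).

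The mannose and glucose that are added inside the ER come from dolichol-phosphate donors. DPM1 is the catalytic subunit of dolichol-phosphate-mannose synthase, DPM2 and DPM3 hold it in the membrane, and ALG5 makes dolichol-phosphate glucose. DPM3 had 4.55, 3.80 and 4.51 CPM in the libraries labelled ATP6AP1 siRNA and 6.83, 6.17 and 6.05 CPM in the control siRNA libraries, and it fell 1.48-fold without overlap (log2 fold change -0.56, SE 0.15, adjusted p = 0.00637). The catalytic subunit did not show this. DPM1 had 114, 107 and 115 CPM in the libraries labelled ATP6AP1 siRNA and 110, 104 and 98.6 CPM in the control siRNA libraries (log2 fold change 0.10, adjusted p = 0.186). ALG5 had 28.1, 30.3 and 27.5 CPM in the libraries labelled ATP6AP1 siRNA and 29.6, 30.1 and 28.7 CPM in the control siRNA libraries (log2 fold change -0.04, adjusted p = 0.654), and DPM2 had a log2 fold change of 0.03. As in ALG13 and ALG14, an anchor subunit passed the test and the catalytic subunit did not. The other anchor subunit, DPM2, did not pass either (adjusted p = 0.799), and the difference between the subunits was not tested.

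None of the 6 glycosyltransferases of the ER lumen passed the test, against 53.3% of all genes tested. They are ALG3, ALG9 and ALG12, which add mannose, and ALG6, ALG8 and ALG10, which add the terminal glucoses. ALG8 had 40.7, 39.2 and 44.5 CPM in the libraries labelled ATP6AP1 siRNA and 47.0, 45.7 and 47.3 CPM in the control siRNA libraries, which do not overlap, with a log2 fold change of -0.17 and an adjusted p of 0.0577. ALG3 had 29.2, 31.4 and 30.2 CPM with the ATP6AP1 siRNA label against 30.4, 25.0 and 24.9 CPM in the control siRNA libraries (log2 fold change 0.18, adjusted p = 0.112). ALG12 had 22.9, 23.3 and 24.9 CPM with the ATP6AP1 siRNA label against 19.3, 21.1 and 23.7 CPM in the control siRNA libraries (log2 fold change 0.15, adjusted p = 0.178). ALG8 was thus the nearest of the 6 to the threshold and the only 1 with an unadjusted p under 0.05 (edgeR, 0.0315). DESeq2 called 0 of them, against 19.9% of its genes each way. Other fits differed. ALG8 was lowered in 4 of 18 alternatives, among them the span trend removed (adjusted p = 0.00968) and transcript length and GC trends removed (0.0171). With library size alone, ALG3 (0.0105), ALG12 (0.0158) and ALG9 (0.0495) were raised, as were 36.5% of all genes tested. ALG10 averaged 9.44 ± 0.851 CPM in the libraries labelled ATP6AP1 siRNA and 9.27 ± 0.886 CPM in the control siRNA libraries, and its near-identical copy ALG10B averaged 20.2 ± 1.66 CPM in the libraries labelled ATP6AP1 siRNA and 17.0 ± 2.57 CPM in the control siRNA libraries (log2 fold change 0.25, adjusted p = 0.0726). ALG10 shares 37.9% of its windows with other transcripts, ALG12 40.8% and ALG9 30.8%, so the division of reads between these genes and their partners is uncertain.

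Genes of this pathway are known targets of the unfolded protein response, and the promoters were searched on both strands for its elements. In windows from 250 bases before to 50 after the start, matched for 37 of the 44 genes in RefSeq (GRCh38.p14), the full ER stress response element (ERSE, which is CCAAT and CCACG with 9 bases between them) occurred in 1 gene, ALG12, and in 0.153% of the 10445 promoters of tested genes. The unfolded protein response element TGACGTG occurred in none of the 37 and in 2.63% of tested promoters. The ALG12 promoter is shown because it holds the only full match. Its 150 bases before the start (chr22:49918439-49918588, minus strand) are given with the ERSE match, which starts 134 bases before the start, and the CCAAT and GGGCGG boxes in capitals.
ALG12: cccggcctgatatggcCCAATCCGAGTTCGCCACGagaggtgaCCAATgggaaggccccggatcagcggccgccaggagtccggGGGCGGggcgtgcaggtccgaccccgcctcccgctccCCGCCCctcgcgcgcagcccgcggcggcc
A match of letters is a description and not a measured binding site, and ALG12 itself did not pass the test.

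The finished precursor is transferred by the oligosaccharyltransferase, whose catalytic subunit is either STT3A, which acts during translation, or STT3B, which also serves sites that STT3A has skipped. Only STT3B of the 6 listed subunits passed the test, against 53.3% of all genes tested. It had 223, 241 and 248 CPM in the libraries labelled ATP6AP1 siRNA and 302, 305 and 307 CPM in the control siRNA libraries, and the highest library labelled ATP6AP1 siRNA lay well below the lowest control siRNA library. STT3B (chromosome 3, 31532638 to 31637616) averaged 238 ± 12.9 CPM in the libraries labelled ATP6AP1 siRNA and 305 ± 2.38 CPM in the control siRNA libraries, and fell 1.28-fold (log2 fold change -0.36, SE 0.0571, adjusted p = 0.000168). STT3A had 202, 225 and 225 CPM in the libraries labelled ATP6AP1 siRNA and 228, 200 and 220 CPM in the control siRNA libraries, a log2 fold change of 0.01 with a 95% confidence interval from -0.13 to 0.16 (adjusted p = 0.902). Per kilobase of transcript, the ratio of STT3B to STT3A levels was 1.21, 1.18 and 1.21 in the libraries labelled ATP6AP1 siRNA and 1.45, 1.67 and 1.53 in the control siRNA libraries. This ratio was not corrected for gene span, which is 105 kb for STT3B and 33.5 kb for STT3A. With the trend on gene span removed, STT3B stood at -0.27 (adjusted p = 0.000837) and STT3A at -0.08 (adjusted p = 0.319). The difference between the 2 genes was not tested.

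The non-catalytic subunits among the 44 genes, DAD1, RPN1, RPN2 and DDOST, did not pass the test. DAD1 had 151, 155 and 157 CPM in the libraries labelled ATP6AP1 siRNA and 177, 177 and 158 CPM in the control siRNA libraries (log2 fold change -0.15, adjusted p = 0.0575), values that do not overlap. RPN1 had 331, 354 and 331 CPM with the ATP6AP1 siRNA label against 317, 319 and 334 CPM in the control siRNA libraries (log2 fold change 0.07, adjusted p = 0.325), with overlap. RPN2 and DDOST had log2 fold changes of 0.03 and -0.04. Of the 6 other subunits of the complex, which are not among the 44 genes, 5 were lowered and none raised, against 26.6% of all genes tested lowered. TUSC3, a thiol oxidoreductase subunit of the STT3B form, averaged 111 ± 3.01 CPM in the libraries labelled ATP6AP1 siRNA and 145 ± 3.66 CPM in the control siRNA libraries (log2 fold change -0.39, adjusted p = 7.87e-05). Its relative MAGT1 averaged 161 ± 10.5 CPM in the libraries labelled ATP6AP1 siRNA and 187 ± 11 CPM in the control siRNA libraries (log2 fold change -0.22, adjusted p = 0.0149). OST4, a small subunit that stabilises the complex, had a log2 fold change of -0.29 (adjusted p = 0.00634), OSTC one of -0.21 and TMEM258 one of -0.24, while KRTCAP2 did not pass. These calls are less firm than that of STT3B. With library size alone 1 of the 6 was lowered (TUSC3) and 1 raised, against 17.8% and 36.5% of all genes tested. Without control siRNA replicate 1 or control siRNA replicate 2, 2 were lowered. TUSC3 spans 349 kb, and with the trend on gene span removed its log2 fold change turned to 0.07 (adjusted p = 0.305).

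**Figure D2:**
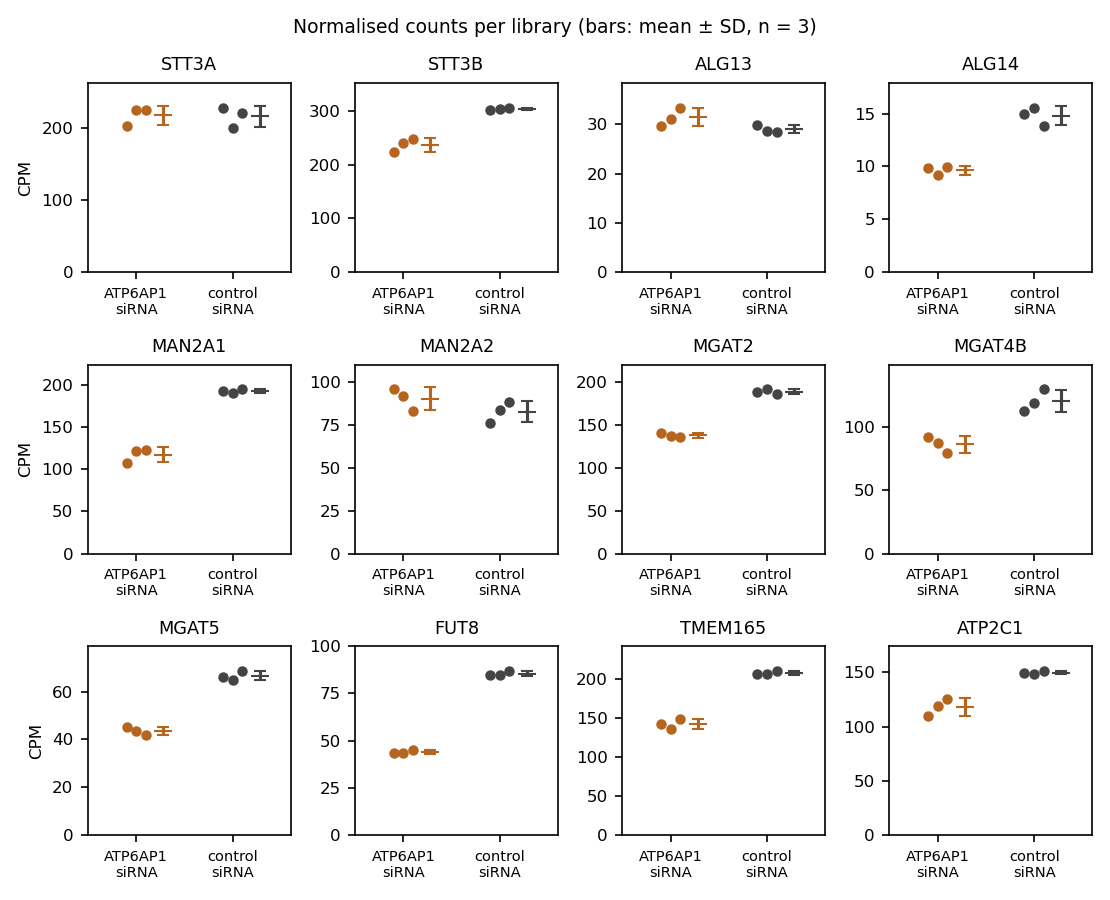
Normalised counts in CPM (y axis, from 0) in each library for 12 N-glycan genes, with libraries labelled ATP6AP1 siRNA at the left of each panel and control siRNA libraries at the right; bars are the mean ± SD over 3 libraries. STT3A, ALG13 and MAN2A2 overlap between the groups, while their partners STT3B, ALG14 and MAN2A1 do not.

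None of the 3 enzymes that trim the glycan in the ER passed the test, against 53.3% of all genes tested. GANAB, the catalytic subunit of glucosidase II, had 816, 846 and 833 CPM in the libraries labelled ATP6AP1 siRNA and 775, 740 and 807 CPM in the control siRNA libraries (log2 fold change 0.10, adjusted p = 0.122). MOGS, glucosidase I, had 54.9, 56.4 and 50.7 CPM with the ATP6AP1 siRNA label against 58.5, 56.8 and 61.9 CPM in the control siRNA libraries (log2 fold change -0.13, adjusted p = 0.129). MAN1B1, a mannosidase of ER quality control, had 94.4, 93.2 and 80.3 CPM with the ATP6AP1 siRNA label against 84.0, 82.4 and 96.1 CPM in the control siRNA libraries (log2 fold change 0.03, adjusted p = 0.780). Both glucosidases separated the groups by narrow gaps in opposite directions, and MAN1B1 overlapped. None of the 3 had an unadjusted p under 0.05 in edgeR. DESeq2 called 0 of them, against 19.9% of its genes each way. With transcript length and GC trends removed, MOGS was lowered (-0.22, adjusted p = 0.00278), as were 30.2% of all genes tested. With library size alone, GANAB was raised (0.24, adjusted p = 0.00188), as were 36.5% of all genes tested. Of 18 alternatives, MOGS passed in 1, GANAB in 2 and MAN1B1 in 0.

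In the Golgi, MAN1A1, MAN1A2 and MAN1C1 cut the outer mannoses, and after MGAT1 has acted MAN2A1 or MAN2A2 removes further mannoses, the step that commits a glycan to the complex type. Of these 5 mannosidases, 3 were lowered (60%) and 1 was raised (20%), against 26.6% and 26.7% of all genes tested. Their median span is 169 kb, and fold change went with gene span in these libraries. MAN2A1 had 108, 122 and 123 CPM in the libraries labelled ATP6AP1 siRNA and 193, 190 and 195 CPM in the control siRNA libraries. The gap between the groups was several times the spread within them, and MAN2A1 (chromosome 5, 109689927 to 109869625) fell 1.64-fold (log2 fold change -0.72, SE 0.0628, adjusted p = 1.06e-06). Its relative MAN2A2, which catalyses the same step, had 95.7, 91.9 and 82.9 CPM in the libraries labelled ATP6AP1 siRNA and 76.1, 83.4 and 88.0 CPM in the control siRNA libraries (log2 fold change 0.13, adjusted p = 0.167). MAN2A2 passed as raised in 3 of 18 alternatives, among them library size alone (adjusted p = 0.00913) and transcript length and GC trends removed (0.00381). Per kilobase, the ratio of MAN2A2 to MAN2A1 levels was 0.909, 0.775 and 0.690 in the libraries labelled ATP6AP1 siRNA and 0.403, 0.449 and 0.462 in the control siRNA libraries. This ratio was not corrected for gene span, which is 20.4 kb for MAN2A2 and 180 kb for MAN2A1. With the trend on span removed, MAN2A2 stood at -0.00285 and MAN2A1 at -0.465.

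The class I mannosidases went different ways. MAN1C1 had 6.55, 4.71 and 5.58 CPM in the libraries labelled ATP6AP1 siRNA and 7.59, 8.75 and 8.96 CPM in the control siRNA libraries, and it fell 1.5-fold (log2 fold change -0.59, adjusted p = 0.0046). MAN1A2, the most abundant of the 3, had 43.7, 49.9 and 50.5 CPM with the ATP6AP1 siRNA label against 58.5, 58.4 and 52.8 CPM in the control siRNA libraries, and it fell 1.18-fold (adjusted p = 0.0187). The call on MAN1A2 was lost with library size alone (adjusted p = 0.278) and without control siRNA replicate 1 (0.0788), control siRNA replicate 2 (0.0883) or ATP6AP1 siRNA replicate 1 (0.0625). MAN1A1 was the only gene of the Golgi lists that rose. It rests on few counts, 30, 25 and 24 in the libraries labelled ATP6AP1 siRNA and 6, 11 and 17 in the control siRNA libraries, and rose 2.35-fold with a 95% confidence interval from 1.37 to 4.02 (adjusted p = 0.0112). The means were 1.54 ± 0.266 CPM in the libraries labelled ATP6AP1 siRNA and 0.651 ± 0.332 CPM in the control siRNA libraries. Its call was lost in DESeq2 (adjusted p = 0.0551) and without control siRNA replicate 1 (0.0517).

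The MGAT enzymes each add an N-acetylglucosamine that starts an antenna: MGAT1 the first, MGAT2 the second, MGAT4A and MGAT4B the third and MGAT5 the branch that galectins bind when it is extended. Of the 5, 4 were lowered (80%, against 26.6% of all genes tested). MGAT4A, the only one that did not pass, averaged 4.22 ± 0.585 CPM in the libraries labelled ATP6AP1 siRNA and 3.87 ± 0.18 CPM in the control siRNA libraries (log2 fold change 0.13, adjusted p = 0.561). MGAT5 had 45.2, 43.6 and 41.8 CPM in the libraries labelled ATP6AP1 siRNA and 66.2, 65 and 68.8 CPM in the control siRNA libraries. Every library labelled ATP6AP1 siRNA lay far below every control siRNA library, and MGAT5 (chromosome 2, 134119983 to 134454621) fell 1.53-fold (log2 fold change -0.61, SE 0.0645, adjusted p = 4.82e-06). MGAT2 had 140, 137 and 135 CPM in the libraries labelled ATP6AP1 siRNA and 189, 192 and 186 CPM in the control siRNA libraries and fell 1.37-fold (log2 fold change -0.45, SE 0.0537, adjusted p = 1.36e-05). MGAT2 (chromosome 14, 49620799 to 49623481) is a gene of 1 exon, and 90.2% of its windows are covered by other transcripts, mainly the antisense gene ENSG00000258377, which stood at 0.906 ± 1.31 CPM in the libraries labelled ATP6AP1 siRNA and 0.269 ± 0.047 CPM in the control siRNA libraries. Whether reads were counted by strand is stated nowhere in the labels, so reads of MGAT2 and its antisense partner cannot be told apart.

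MGAT4B had 92.0, 87.2 and 79.0 CPM in the libraries labelled ATP6AP1 siRNA and 112, 118 and 129 CPM in the control siRNA libraries, and it fell 1.40-fold (log2 fold change -0.48, SE 0.0734, adjusted p = 0.000118). MGAT1, on whose product the other MGAT enzymes depend, had 81.3, 77.4 and 68.3 CPM with the ATP6AP1 siRNA label against 87.9, 96.5 and 99.2 CPM in the control siRNA libraries. It fell 1.25-fold (log2 fold change -0.32, SE 0.0757, adjusted p = 0.00299), and with library size alone the call was lost (adjusted p = 0.0583). Summed over the 10 genes of Golgi trimming and branching, the level was 618, 619 and 593 CPM in the libraries labelled ATP6AP1 siRNA and 795, 817 and 833 CPM in the control siRNA libraries. Summed over the 22 genes of ER assembly and transfer it was 2187, 2272 and 2266 CPM with the ATP6AP1 siRNA label against 2304, 2220 and 2309 CPM in the control siRNA libraries. The Golgi sum divided by the ER sum was thus 0.283, 0.273 and 0.262 in the libraries labelled ATP6AP1 siRNA and 0.345, 0.368 and 0.361 in the control siRNA libraries, and the groups did not overlap. Such a ratio within a library does not depend on how the libraries are scaled, but it is weighted to the most abundant genes. The 6 listed oligosaccharyltransferase subunits alone gave 1620, 1698 and 1681 CPM of the ER sum in the libraries labelled ATP6AP1 siRNA. In the control siRNA libraries they gave 1749, 1691 and 1772 CPM. Among the 10 Golgi genes, MGAT2 and MAN2A1 had the highest mean CPM in both groups. The ratio was not corrected for gene span.

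**Figure D3:**
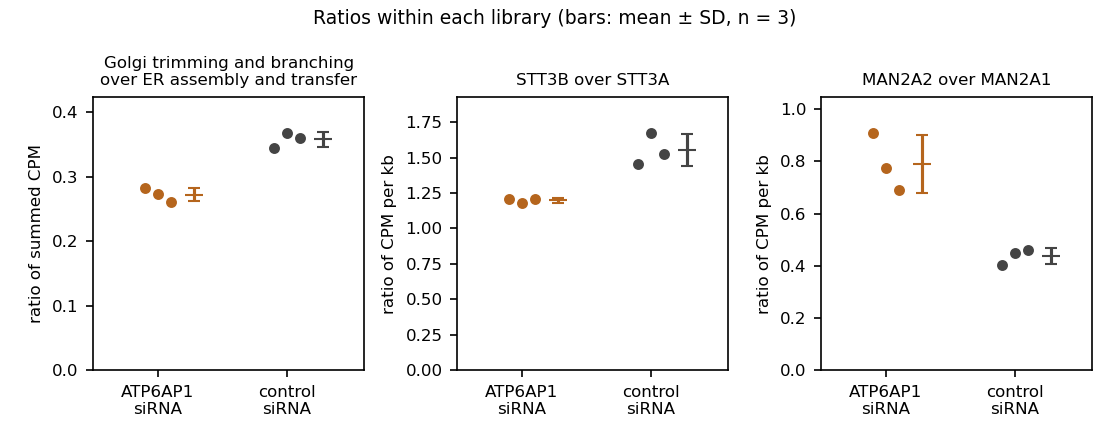
Ratios within each library (y axes, from 0): the summed CPM of the 10 Golgi trimming and branching genes over the 22 ER assembly and transfer genes, and per-kilobase levels of STT3B over STT3A and MAN2A2 over MAN2A1. Libraries labelled ATP6AP1 siRNA are at the left and control siRNA libraries at the right, with the mean ± SD over 3 libraries. The first 2 ratios are lower in all 3 libraries labelled ATP6AP1 siRNA than in any control siRNA library, and the third is higher. The ratios are not corrected for gene span.

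Later Golgi steps held the member with the lowest adjusted p of all 44 genes. FUT8, which adds the core fucose and acts on the product of MGAT1, had 43.5, 43.3 and 45.1 CPM in the libraries labelled ATP6AP1 siRNA and 84.9, 84.6 and 87.0 CPM in the control siRNA libraries. Replicates of each group lay within a few CPM of each other, and FUT8 (chromosome 14, 65410592 to 65744121) fell 1.94-fold (log2 fold change -0.96, SE 0.0604, adjusted p = 7e-08). The galactosyltransferase B4GALT1 had 71.3, 70.2 and 78.2 CPM in the libraries labelled ATP6AP1 siRNA and 81.0, 76.7 and 80.6 CPM in the control siRNA libraries (log2 fold change -0.12, adjusted p = 0.148). The sialyltransferase ST3GAL4 had 38.5, 38.6 and 34.7 CPM with the ATP6AP1 siRNA label against 39.4, 37.7 and 42.4 CPM in the control siRNA libraries (log2 fold change -0.10, adjusted p = 0.306). In both of these the groups overlapped. The sialyltransferase ST6GAL1 had counts of 3, 2 and 4 in the libraries labelled ATP6AP1 siRNA and 7, 3 and 12 in the control siRNA libraries and was the 1 gene that did not pass the filter, so a difference was not detectable at this depth.

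None of the 3 transporters that bring sugar nucleotides into the Golgi passed the test, against 53.3% of all genes tested. SLC35A1, which carries CMP-sialic acid, had 30.2, 35.4 and 37.9 CPM in the libraries labelled ATP6AP1 siRNA and 30.7, 31.1 and 25.8 CPM in the control siRNA libraries (log2 fold change 0.24, adjusted p = 0.0535), and 56.0% of its windows are shared with other transcripts. SLC35C1, the GDP-fucose transporter, had 18.7, 18.8 and 16.9 CPM with the ATP6AP1 siRNA label against 18.8, 20.1 and 25.5 CPM in the control siRNA libraries (log2 fold change -0.25, adjusted p = 0.0833). SLC35A2, the UDP-galactose transporter, had 45.1, 46.7 and 45.5 CPM with the ATP6AP1 siRNA label against 39.6, 39.6 and 45.6 CPM in the control siRNA libraries (log2 fold change 0.14, adjusted p = 0.134). In edgeR 2 of the 3 had an unadjusted p under 0.05 (SLC35A1, 0.0289, and SLC35C1, 0.0484). DESeq2 called 0, against 19.9% of its genes each way. With the trend on gene span removed, SLC35C1 passed (adjusted p = 0.0235). Over the 18 alternatives, SLC35A1 passed in 6, SLC35C1 in 4 and SLC35A2 in 2.

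Both genes of Golgi ion supply were lowered, against 26.6% of all genes tested. TMEM165, a Golgi membrane protein needed for manganese, the cofactor of many Golgi glycosyltransferases, had 142, 136 and 148 CPM in the libraries labelled ATP6AP1 siRNA and 206, 205 and 210 CPM in the control siRNA libraries. The groups were far apart, and TMEM165 (chromosome 4, 55395957 to 55453397) fell 1.46-fold (log2 fold change -0.54, SE 0.0566, adjusted p = 4.61e-06). ATP2C1, the calcium and manganese pump of the Golgi, had 109, 119 and 126 CPM in the libraries labelled ATP6AP1 siRNA and 149, 149 and 152 CPM in the control siRNA libraries, and it fell 1.27-fold (log2 fold change -0.34, SE 0.0625, adjusted p = 0.000472). ATP2C1 spans 166 kb, and with the trend on gene span removed its log2 fold change was -0.12 and its call was lost (adjusted p = 0.0959), while that of TMEM165 was kept.

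The promoters of 5 of the 13 lowered genes are shown as examples, so that the letters ahead of genes that fell together can be compared. Each is the 150 bases before a RefSeq start (GRCh38.p14), 5′ to 3′ on the gene's strand, with GGGCGG boxes and CCAAT boxes, on either strand, in capitals. MAN2A1 is at chr5:109689777-109689926, plus strand, MGAT4B at chr5:179806867-179807016, minus strand, MGAT5 at chr2:134253922-134254071, plus strand, FUT8 at chr14:65412580-65412729, plus strand and TMEM165 at chr4:55395807-55395956, plus strand. The windows of MGAT5 and FUT8 lie inside their GENCODE gene spans, which begin at 134119983 and 65410592. The window of MGAT4B lies partly inside its span, which ends at 179806952. For these genes the letters precede a start inside the span used for the trend on span, not its outer end.
MAN2A1: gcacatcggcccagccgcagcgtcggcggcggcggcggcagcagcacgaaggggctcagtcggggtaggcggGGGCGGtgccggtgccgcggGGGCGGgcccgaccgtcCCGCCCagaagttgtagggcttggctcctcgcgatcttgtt
MGAT4B: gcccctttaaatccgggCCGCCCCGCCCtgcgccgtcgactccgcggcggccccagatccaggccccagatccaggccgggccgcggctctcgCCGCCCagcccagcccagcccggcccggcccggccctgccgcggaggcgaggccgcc
MGAT5: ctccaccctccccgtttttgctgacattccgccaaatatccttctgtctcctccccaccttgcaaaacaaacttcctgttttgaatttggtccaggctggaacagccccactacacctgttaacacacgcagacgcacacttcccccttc
FUT8: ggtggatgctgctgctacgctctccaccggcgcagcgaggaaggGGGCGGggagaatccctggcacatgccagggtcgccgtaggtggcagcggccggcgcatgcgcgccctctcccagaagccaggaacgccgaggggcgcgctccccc
TMEM165: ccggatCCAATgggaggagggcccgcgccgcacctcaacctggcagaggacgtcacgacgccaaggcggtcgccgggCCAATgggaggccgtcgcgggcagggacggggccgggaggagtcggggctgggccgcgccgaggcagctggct
MAN2A1 and MGAT4B hold 3 GGGCGG boxes each and FUT8 holds 1, TMEM165 holds 2 CCAAT boxes and no GGGCGG box in these letters, and MGAT5 holds neither. MGAT2, lowered with a smaller adjusted p than MGAT4B, is not shown, and its 300-base window holds both kinds of box. Over the 300-base windows, GGGCGG occurred in 67.6% of the 37 matched N-glycan genes and 74.3% of tested promoters, and CCAAT in 45.9% and 37.4%. The E-box CACGTG occurred in 3 (ALG1, DDOST, SLC35C1) and in 10.2% of tested promoters. The Golgi stress element ACGTGGC occurred in 3 (GANAB, MGAT1, SLC35C1) and in 4.37%. The E-box, the Golgi stress element and the unfolded protein response element can overlap each other, and CCAAT is part of the ERSE.

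The lowered Golgi genes include several that span a long stretch of genome, and in these libraries the fold change went with gene span. Over tested protein-coding genes split by span into 10 classes of equal size, log2 fold changes had a median of 0.137 in the third class (median span 13.8 kb) and -0.395 in the longest (median span 249 kb), where 773 of 1298 genes were lowered. The median span was 137 kb in the 10 genes of Golgi trimming and branching, 39.0 kb in the 22 ER genes and 30.8 kb over all genes tested. MGAT5 spans 335 kb, FUT8 334 kb, MAN2A1 180 kb, MAN1C1 169 kb, ATP2C1 166 kb and MAN1A2 161 kb. MGAT2 and MGAT4B are short, at 2.68 and 9.36 kb, MGAT1 is near the median of all genes at 30.9 kb, and MAN1A1, which rose, spans 173 kb.

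With each library's trend on span removed, 2 of the 43 genes were raised and 13 lowered (25.0% and 26.6% of all genes tested). Of the 10 Golgi genes 5 were then lowered, their median was -0.26, and that of the ER genes -0.0045. MGAT2 then stood at -0.44, MGAT4B at -0.58, MGAT1 at -0.42, TMEM165 at -0.59, FUT8 at -0.52 and MAN2A1 at -0.47, all still past the threshold. MGAT5 stood at -0.17 (adjusted p = 0.0457), against -0.61 without the correction, and its call was lost when the replicate block was added to the removal of the trend (-0.17, adjusted p = 0.106). The calls on MAN1A2 (log2 fold change -0.02, adjusted p = 0.837), MAN1C1 (-0.35, 0.0644), ATP2C1 (-0.12, 0.0959) and ALG1 (0.16, 0.0979) were lost. In the ER, STT3B stood at -0.27, ALG14 at -0.55 and DPM3 at -0.48, and ALG8 and DAD1 now passed (-0.24 and -0.26). The transporter SLC35C1 passed as well (-0.34, adjusted p = 0.0235).

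**Figure D4:**
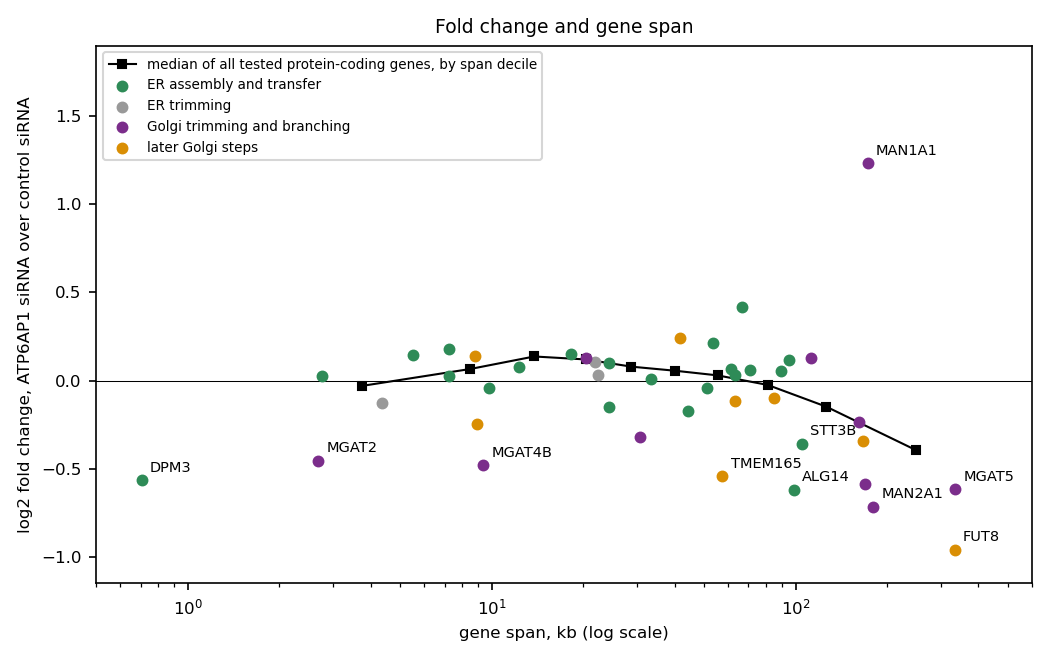
Log2 fold change (y axis, libraries labelled ATP6AP1 siRNA over control siRNA) against gene span in kilobases (x axis, log scale) for the tested N-glycan genes, coloured by stage; black squares join the medians of all tested protein-coding genes in 10 classes of span. The line falls to -0.395 in the longest class, and the short genes MGAT2 and MGAT4B lie at -0.45 and -0.48.

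Per kilobase of transcript, the levels of the 44 genes covered a wide range. DAD1 averaged 226 ± 4.76 CPM per kb in the libraries labelled ATP6AP1 siRNA and 250 ± 15.7 CPM per kb in the control siRNA libraries, the highest of all. DDOST stood near it, at 211 CPM per kb with the ATP6AP1 siRNA label and 217 with control siRNA, as did GANAB at 217 with the ATP6AP1 siRNA label and 202 with control siRNA. In the Golgi, TMEM165 led with 73.5 CPM per kb with the ATP6AP1 siRNA label and 107 with control siRNA, above MGAT2 (51.3 with the ATP6AP1 siRNA label, 70.4 with control siRNA) and MGAT4B (36.4 with the ATP6AP1 siRNA label, 50.8 with control siRNA). MGAT4A (0.50 with the ATP6AP1 siRNA label, 0.46 with control siRNA) and MAN1A1 (0.31 with the ATP6AP1 siRNA label, 0.13 with control siRNA) were the lowest of the tested genes, below ALG14 (1.03 with the ATP6AP1 siRNA label, 1.58 with control siRNA). The MGAT4B level exceeded that of MGAT4A, which makes the same branch, 91.2, 71.1 and 59.3 times in the libraries labelled ATP6AP1 siRNA and 98.1, 113 and 119 times in the control siRNA libraries.

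Genes around the pathway, on lists of 67 that hold none of the 44, went both ways. Of the 65 tested, 20 were lowered, 15 raised and 30 did not pass, against 26.6% and 26.7% of all genes tested. With library size alone 8 were lowered and 25 raised, against 17.8% and 36.5% of all genes tested. Without control siRNA replicate 1, control siRNA replicate 2 or ATP6AP1 siRNA replicate 2 the number lowered was 9, 12 and 12. For these fits the shares over all genes were not taken. Among the 18 genes that supply dolichol and sugar donors, 7 were raised (38.9%) and 6 lowered (33.3%). DOLPP1, which recycles the dolichol carrier, averaged 75.8 ± 5.50 CPM in the libraries labelled ATP6AP1 siRNA and 40.7 ± 3.27 CPM in the control siRNA libraries, 1.86-fold higher (adjusted p = 1.09e-06). UAP1, which makes the UDP-N-acetylglucosamine that DPAGT1 and the MGAT enzymes use, averaged 241 ± 8.98 CPM in the libraries labelled ATP6AP1 siRNA and 376 ± 6.58 CPM in the control siRNA libraries (log2 fold change -0.64, adjusted p = 7.81e-07). UGP2, which makes UDP-glucose, averaged 110 ± 3.08 CPM in the libraries labelled ATP6AP1 siRNA and 164 ± 3.73 CPM in the control siRNA libraries (log2 fold change -0.57, adjusted p = 2.68e-06).

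Of 15 genes of glycoprotein quality control and export, 4 were lowered and 3 raised, shares of 26.7% and 20% that lie near or below those of all genes tested (26.6% and 26.7%). The export cofactor MCFD2 averaged 333 ± 22.1 CPM in the libraries labelled ATP6AP1 siRNA and 450 ± 9.39 CPM in the control siRNA libraries (log2 fold change -0.43, adjusted p = 5.06e-05). The lectin OS9 (log2 fold change 0.27, adjusted p = 0.00549) and the mannosidase EDEM3 (0.32, 0.00916), both of ER-associated degradation, were raised. Of 11 other tested Golgi enzymes, 3 were lowered (27.3%, against 26.6% of all genes tested) and none raised: the galactosyltransferase B4GALT2 (76.8 ± 10.3 CPM with the ATP6AP1 siRNA label and 114 ± 7.27 CPM with control siRNA, adjusted p = 0.000143), MGAT5B (log2 fold change -0.51, adjusted p = 0.00195) and GNPTAB, which starts the lysosomal mannose tag (-0.21, 0.0244). Of 15 genes of sialic acid, fucose and UDP-N-acetylglucosamine supply and manganese entry, 5 were raised (33.3%) and 2 lowered (13.3%). SLC35C2, a relative of the GDP-fucose transporter, averaged 63.1 ± 3.53 CPM in the libraries labelled ATP6AP1 siRNA and 40.5 ± 0.812 CPM in the control siRNA libraries (log2 fold change 0.64, adjusted p = 5.07e-06), and NANP, of sialic acid synthesis, had a log2 fold change of 0.28 (adjusted p = 0.00533). GMDS, which starts the synthesis of GDP-fucose, the donor of FUT8, had one of -0.57 (adjusted p = 0.000747) and spans 622 kb. With the trend on span removed GMDS turned to 0.05 (adjusted p = 0.719) and the call on NANP was lost (adjusted p = 0.0671). The call on GNPTAB was lost in 9 of 17 settings, among them library size alone (adjusted p = 0.400), DESeq2, the replicate block and the omission of any library but ATP6AP1 siRNA replicate 3.

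**Figure D5:**
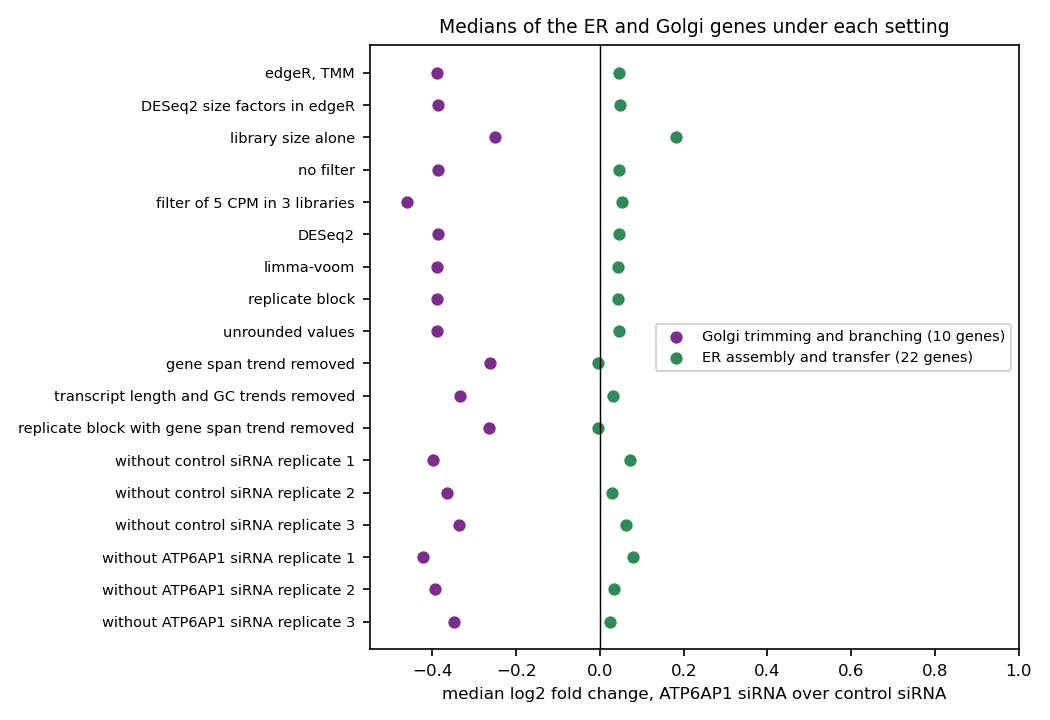
Median log2 fold change (x axis, libraries labelled ATP6AP1 siRNA over control siRNA) of the 10 Golgi trimming and branching genes and the 22 ER assembly and transfer genes under each processing setting (rows; with the filter of 5 CPM, 8 Golgi genes). The Golgi median lies below the ER median in every setting shown, at -0.388 and 0.045 in the first row. A change of scaling alone shifts both medians nearly alike.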

How the data were processed

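The authors deposited 1 table of estimated counts (expected counts) per Ensembl gene and library. Per the submitters' processing notes the tools were FastQC, Trimmomatic, HISAT2, featureCounts and DESeq2 on GRCh38 (hg38), named without versions. Per the labels, poly(A) RNA was copied with random hexamers and sequenced in pairs. In each library 12.3 to 13.9% of the values were fractional; whole counts had been planned for, so values were rounded. Symbols and coordinates are from GENCODE release 44 (21947 IDs had a symbol).

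Genes kept by filterByExpr (15372) were tested in R 4.3.3 by edgeR 4.0.16 (quasi-likelihood F test, two-sided), with TMM factors (1.04 to 1.06 in the libraries labelled ATP6AP1 siRNA, 0.949 to 0.958 in the control siRNA libraries), group as the term and Benjamini-Hochberg adjustment over all genes at 0.05. The biological coefficient of variation was 6.89%. No library repeated another: chi-square per gene was 3.66 to 9.68 for pairs of replicates and 52.2 to 60.0 for pairs across groups. CPM use the TMM factors, and CPM per kb divide by the MANE Select transcript. Simulated counts were used to test the main edgeR fit, DESeq2, limma-voom and the fit with the gene span trend removed. The other fits were not tested in this way. Errors are SDs over 3 libraries or SEs of the fit, and depth limits genes of few counts.

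The members and lists were chosen with earlier results of these data known. Per-library values are given for the up to 3 members of each list with the lowest adjusted p, with partners added after their values were seen (ALG13, STT3A, MAN1A2, MAN2A2, MGAT1). The stress response elements and the E-box were planned motifs, and the Golgi stress element, the CCAAT box and the GC box were added after the data were seen. Windows of 50 bases were matched to all transcripts. Alternatives were other size factors, library size alone, no filter, 5 CPM in 3 libraries, DESeq2 1.42.0, limma-voom (limma 3.58.1), the replicate number as a block, each library left out, unrounded values, an adjusted p of 0.01, and the gene span trend removed (lowess, span 0.3). Removal of the transcript length and GC trends, and the block with the span trend removed, were chosen after seeing the data.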

Additional observations from a re-analysis of the deposited data

How the results depend on the processing

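Of the 16 members called, 9 kept their direction and call under all 18 alternatives: ALG11, ALG14, DPM3, STT3B, MAN2A1, MGAT2, MGAT4B, FUT8 and TMEM165. Between 11 and 17 members were lowered, against 13. Members raised (3) numbered 15 with library size alone, 1 with DESeq2, 5 with transcript length and GC trends removed, 1 at an adjusted p of 0.01, and 2 to 7 with a library left out. Neighbouring genes raised (15) numbered 25 with library size alone, 7 with the replicate block and the span trend removed, and 12 to 16 with a library left out. Those lowered (20) numbered 8 with library size alone, 10 at 0.01, and 9 to 19 with a library left out. Shares over all genes were not taken for 0.01, the block with the span trend removed or a library left out. The ER median (0.045) was 0.18 with library size alone, -0.0045 with the span trend removed, -0.0040 with the block too, and 0.024 to 0.079 with a library left out. The Golgi median (-0.388) was -0.25, -0.26 and -0.27 under those 3 settings, -0.46 with 5 CPM, where fewer genes are tested, and -0.42 to -0.34 with a library left out. The Golgi minus ER difference (-0.433) was -0.26 with the span trend removed, with or without the block, and -0.50 to -0.37 with a library left out. The cause of these shifts was not tested.

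Replicate numbers did not pair the samples: same-numbered libraries correlated at -0.0879, -0.0291 and -0.102, and 0 of them best with their own number. With the replicate block, 2 members were raised and 13 lowered (ALG1 lost), and 12 neighbours were lowered.

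Members that crossed 0 in any setting had a log2 fold change of at most 0.129 in size, and none passed the threshold on the other side. With library size alone ALG5 was 0.0943, DDOST 0.097, MOGS 0.00843, B4GALT1 0.0207 and ST3GAL4 0.0411. With the span trend removed, then with the block added, DPAGT1 was -0.0444 then -0.0381, DPM1 -0.015 then -0.0145, ALG10 -0.0408 then -0.042, STT3A -0.0815 then -0.0812, GANAB -0.0203 then -0.0198, MAN1B1 -0.0935 then -0.0932 and MAN2A2 -0.00285 then -0.00212. With transcript length and GC trends removed ALG6 was -0.0812, ALG10 -0.0959 and MAN1B1 -0.0557. With a library left out, ALG10 ran from -0.0431 to 0.117, DPAGT1 from -0.0119 to 0.195, ALG6 from -0.0166 to 0.166, STT3A from -0.0324 to 0.0654, MAN1B1 from -0.0114 to 0.121, DDOST from -0.0557 to 0.0225, DPM2 from -0.0172 to 0.0885 and ALG9 from -0.00648 to 0.108.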
